A study of Mus musculus with 3 samples.

Results

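The genes described here are 41 interferon-stimulated and antigen presentation genes, measured in mouse embryonic stem (ES) cells before and after loss of Nr0b1 (Dax1), a nuclear receptor family member that lacks a DNA-binding domain. The members were chosen by gene name, as genes of the type I interferon response together with its antigen presentation arm. The array carried 35019 gene names, and all 41 members were among them, on 54 probes. Of these members, 38 were tested among 22441 genes in all, because a probe of theirs was well above background on all 3 arrays of some group. The other members were Oas3, Mx1 and Rsad2, whose probes were well above background on 1, 0 and 0 of the 9 arrays.

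Interferons signal through their receptors and the kinases Jak1 and Tyk2 to transcription factors, Stat2 and Irf9 among them, that bind interferon-stimulated response elements, while interferon gamma acts through gamma-activated sites. The induced genes include sensors of viral RNA, enzymes that degrade or modify RNA, the ubiquitin-like protein Isg15 with its deconjugating enzyme Usp18, and the immunoproteasome and peptide transporter that load MHC class I. Undifferentiated ES cells are known to respond weakly to interferon, and embryonic fibroblasts to respond strongly.

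The RNA came from 3 groups of male ES cells with 3 arrays each, all derived from the EB5 line, itself from E14tg2a. All groups carried MerCreMer and Egfp as piggyBac transgenes under the CAG promoter. In Nr0b1 fl/Y −Tx ES cells the floxed exon was intact, in Nr0b1 fl/Y +Tx ES cells 4-hydroxy tamoxifen (Tx) had activated MerCreMer for 4 days, and Nr0b1 KO/Y ES cells were established lines grown from Tx-treated cells. A Tx-treated group without the floxed allele is not analysed here, so an effect of Tx and one of the deletion cannot be told apart in the +Tx group. The study used a pair of independent fl/Y lines with their KO/Y descendants, and the line behind each array is not given in the sources used here. The cells were grown with or without mitotically inactive embryonic fibroblast feeder cells, and which applied to these samples is not given either. The study describes the arrays as biological triplicates; as nothing ties an array to a replicate number, arrays are numbered by slide position, and p-values measure the spread between these arrays.

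Levels are log2 Cy3 intensities relative to the 75th percentile of the array, so 0 is the level of a fairly bright probe, and a difference of 1 is 2-fold. Levels of different probes cannot be set against each other. The −Tx arrays and +Tx array 1 were on slide 1, and +Tx arrays 2 and 3 and the KO/Y arrays were on slide 2, so that −Tx and KO/Y never shared a slide. Between 28805 and 32503 of 55681 probes were well above background on an array. As a check of the labels, Nr0b1 lay between 4.02 and 4.18 on the −Tx arrays and between -2.66 and -2.42 on the +Tx arrays, and was not well above background on any KO/Y array. ES cell markers (10 of 10 tested) had a median level of 4.09 to 4.50 on all arrays. Fibroblast markers (24 of 24 tested, collagens, Thy1 and Twist1 among them) were far from absent, with a median level of 2.32 to 2.37 in −Tx, 2.70 to 2.86 in +Tx and 3.05 to 3.22 in KO/Y. A higher level can come from more cells of a type or from more RNA per cell, and bulk samples cannot tell these apart.

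The promoters were searched for the letters of the elements through which the pathway acts. RefSeq windows (GRCm38.p6) were found for 33 of the 41 members, some with several start sites, and the 250 bases before each start were searched on both strands. The core of the response element, GAAANNGAAA, was found in the windows of 13 members and in 31.7% of the members' 41 windows, against 2.98% of 32851 windows of all genes. The gamma-activated site, TTCNNNGAA, was found in 7 members and 17.1% of their windows, against 7.02% of all windows. Both were present in 4.88% of the member windows and 0.332% of all windows. The stretches below are those of some members that held a match. They are on the gene's own strand from 5′ to 3′, with 20 bases on either side of the matches where the window allowed it. Other members described below, Ifi44, Irf7, Oasl2, Ifitm1, Psmb9 and Tap1 among them, had windows that held neither element. Capitals mark the letters of a match, which is the reverse complement of the core where the element lies on the other strand.
Isg15: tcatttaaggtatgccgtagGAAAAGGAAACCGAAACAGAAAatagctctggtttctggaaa
Ifit1: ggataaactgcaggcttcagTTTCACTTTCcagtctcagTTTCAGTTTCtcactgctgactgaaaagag
Ifit3: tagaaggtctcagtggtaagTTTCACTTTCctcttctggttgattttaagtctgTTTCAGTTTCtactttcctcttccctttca
Bst2: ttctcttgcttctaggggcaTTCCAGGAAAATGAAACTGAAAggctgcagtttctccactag
Gbp3: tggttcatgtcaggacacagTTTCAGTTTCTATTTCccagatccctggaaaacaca
Oas1a: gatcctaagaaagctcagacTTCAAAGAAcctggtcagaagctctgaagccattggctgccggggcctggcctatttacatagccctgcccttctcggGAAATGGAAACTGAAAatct
Cxcl10: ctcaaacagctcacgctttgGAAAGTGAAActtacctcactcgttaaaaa
Isg20: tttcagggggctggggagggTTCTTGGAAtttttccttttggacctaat
Irf1: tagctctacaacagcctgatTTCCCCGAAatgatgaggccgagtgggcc

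Isg15 (chr4:156200855-156200916) held 3 overlapping response element cores in a row, from -78 to -57 relative to the start. Ifit1 (chr19:34640765-34640833) and Ifit3 (chr19:34583353-34583436), neighbours on chromosome 19, held 2 separate cores each. In Bst2 (chr8:71537567-71537628) the 2 cores overlapped each other and a gamma-activated site, and in Gbp3 (chr3:142559979-142560034) 2 cores overlapped. Oas1a (chr5:120907526-120907643) held 2 overlapping cores within 20 bases of the start and a gamma-activated site further away. Cxcl10 (chr5:92349073-92349122) held 1 core, and Isg20 (chr7:78913331-78913379) and Irf1 (chr11:53769904-53769952) held 1 gamma-activated site each and no core. A match is a run of letters, not evidence that a factor binds there.

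Many members differed widely between arrays of the same group. On the −Tx arrays 1, 2 and 3, Isg15, the ubiquitin-like modifier, was at 2.19, 2.95 and 4.12. On the +Tx arrays it was at 2.22, 3.84 and 2.04, and on the KO/Y arrays at 3.55, 4.59 and 2.73. The groups overlapped throughout, with −Tx array 3, +Tx array 2 and KO/Y array 2 as the highest of their groups, and the distance from the lowest to the highest array was 3.79-fold, 3.49-fold and 3.65-fold. The second Isg15 probe kept the same order of arrays within each group, at -1.66, -0.89 and 0.38 in −Tx, at -1.76, 0.03 and -1.82 in +Tx and at -0.26, 0.86 and -1.07 in KO/Y.

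**Figure D1:**
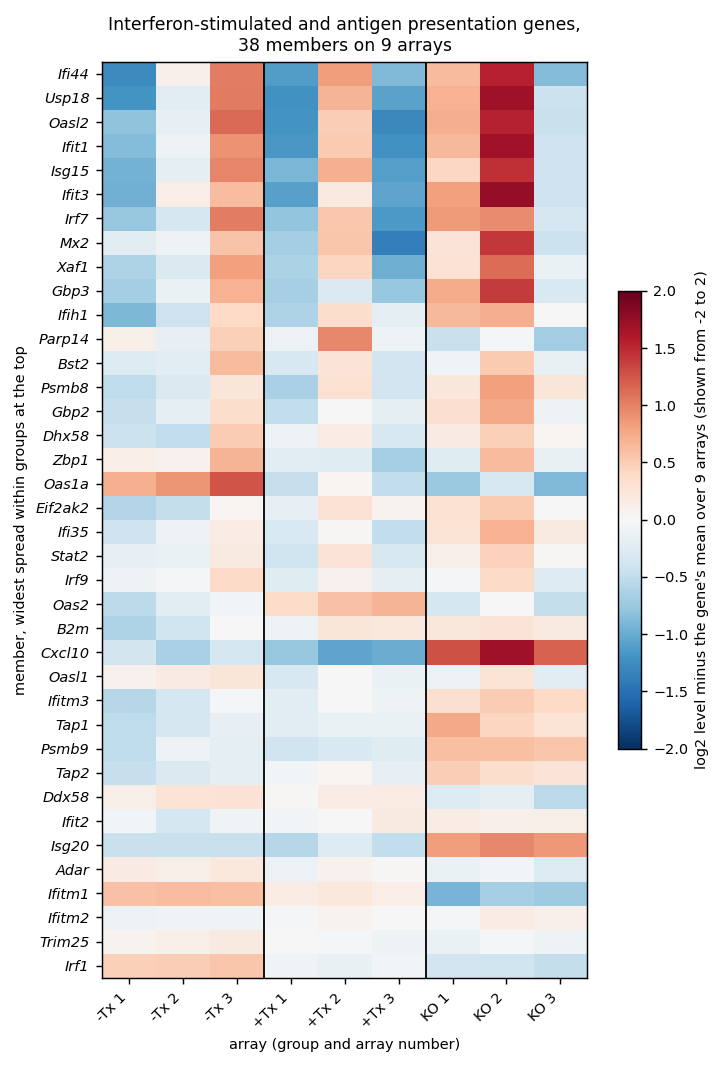
Levels of the 38 tested members (rows, ordered by their spread within groups) on the 9 arrays (columns), as log2 level minus the gene's mean over the arrays, with colours from -2 (blue) to 2 (red) and black lines between groups. The top 8 rows are red on −Tx array 3, +Tx array 2 and KO/Y arrays 1 and 2, while Isg20, Ifitm1 and Irf1 change colour from group to group.

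Members of many roles followed the same arrays. Usp18, which removes Isg15 from its targets and dampens the interferon receptor, was at -2.50, -1.52 and -0.27 in −Tx, at -2.51, -0.63 and -2.37 in +Tx and at -0.60, 0.38 and -1.73 in KO/Y. Ifit1, which binds viral RNA without the host cap methylation, was at -2.56, -1.79 and -0.79 in −Tx, at -2.86, -1.16 and -2.90 in +Tx and at -1.04, -0.01 and -2.11 in KO/Y. In both genes the high arrays were those of Isg15 and no group stood clear of another. Ifi44, an interferon-induced protein with a GTP-binding motif, had the widest spread of the members, at -3.26, -1.89 and -0.96 in −Tx, at -3.11, -1.15 and -2.87 in +Tx and at -1.35, -0.44 and -2.86 in KO/Y. Its lowest and highest arrays differed 4.93-fold in −Tx, 3.88-fold in +Tx and 5.35-fold in KO/Y.

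Oasl2, a synthetase-like protein, was at -1.66, -1.02 and 0.27 in −Tx, at -2.06, -0.37 and -2.15 in +Tx and at -0.14, 0.67 and -1.32 in KO/Y. Irf7, the factor that amplifies interferon transcription, was at -3.80, -3.39 and -2.02 in −Tx, at -3.84, -2.50 and -4.19 in +Tx and at -2.20, -2.11 and -3.38 in KO/Y. Mx2, a dynamin-like GTPase, was at -2.51, -2.40 and -1.72 in −Tx, at -2.98, -1.75 and -3.66 in +Tx and at -2.04, -0.88 and -2.73 in KO/Y. The same array was highest in each group for all 3 genes. These wide-spread members, and genes outside the members that were not called, were chosen for naming after their values were seen.

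**Figure D2:**
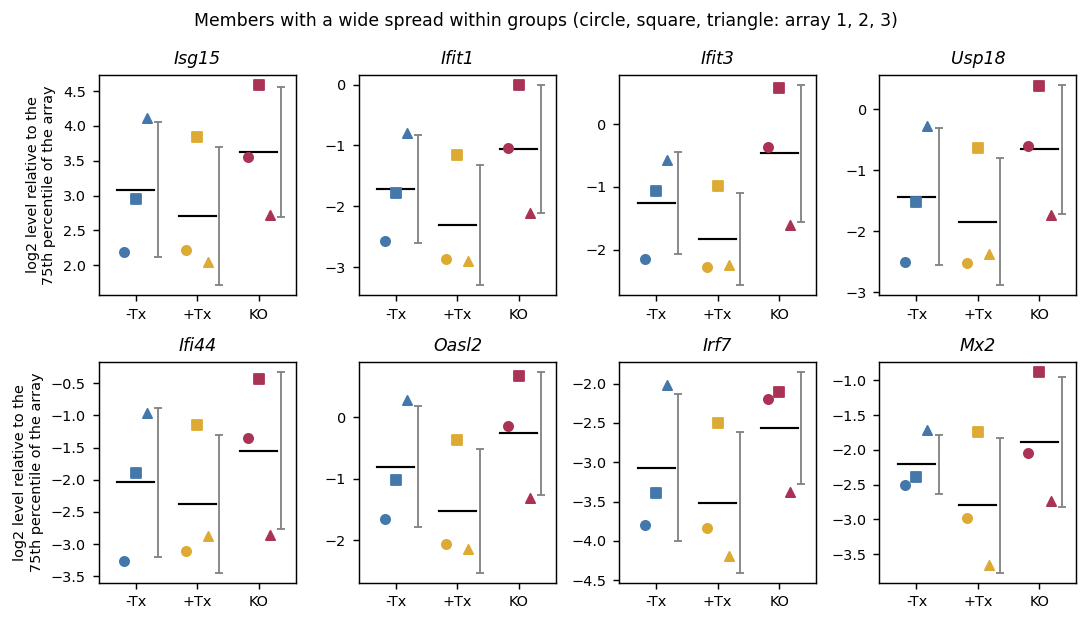
Log2 levels relative to the 75th percentile of the array for 8 members, with 1 point per array (circle, square and triangle for arrays 1, 2 and 3), a black line at the group mean and a grey bar of ± 1 SD (n = 3 arrays). In every panel the triangle is highest in −Tx and the square is highest in +Tx and KO/Y, and the groups overlap.

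Across the members tested other than Isg15, 25 of 37 were highest on the same array of every group as Isg15, against 3.13% of all 22440 other genes. The arrays were taken from Isg15 in these same data, after its values were seen, so these shares describe the pattern and do not test it. The 25 members included all tested GTPases (Gbp2, Gbp3 and Mx2) and the other effectors Ifi35, Ifi44, Parp14 and Xaf1. Also among them were 3 of the 4 sensors (Ddx58, Dhx58 and Ifih1), and Irf7, Irf9 and Stat2 among the transcription factors. No margin was required for an array to count as highest. Ddx58 was at 2.804 on +Tx array 2 and 2.803 on +Tx array 3, and its SD within groups was 0.120. In the antigen presentation arm only B2m and Psmb8 followed. The median SD within groups was 0.412 over these members and Isg15 (26 genes) and 0.120 over the other 12, against 0.122 over all genes tested. Of the 38 members, 14 had an SD within groups above 0.395, the 95th percentile of all genes. Response element cores were found in 9 of 22 of the former members that had a promoter window and in 2 of 9 of the latter.

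Among genes outside the members, 19 of 48 other interferon-stimulated genes tested were highest on these arrays. Rtp4, an interferon-induced chaperone of membrane receptors, was one of them, at -0.76, 0.14 and 1.45 in −Tx, at -0.54, 0.96 and -0.64 in +Tx and at 0.84, 1.68 and 0.07 in KO/Y. Of the 15 tested interferons, receptors and kinases only Socs1, a feedback inhibitor of Jak kinases, was highest on the same arrays as Isg15. Of 20 adaptors and factors of nucleic acid sensing only Trex1, a DNA exonuclease, was. For Socs1 this was close to a tie. It was at -0.380 and -0.387 on +Tx arrays 2 and 3, and at 0.041 and 0.040 on KO/Y arrays 2 and 3. None of the 24 fibroblast, 15 primitive endoderm, 11 immune cell, 10 ES cell or 11 2-cell-like markers tested was highest on the same array of every group. On arrays 1, 2 and 3 the median level of the fibroblast markers was 2.32, 2.32 and 2.37 in −Tx. It was 2.70, 2.78 and 2.86 in +Tx and 3.22, 3.05 and 3.15 in KO/Y. The median level of the members was -1.02, -1.02 and -0.07 in −Tx and -1.11, -0.18 and -1.21 in +Tx. In KO/Y it was -0.16, 0.48 and -0.68. High and low arrays for Isg15 lay on the same slide: +Tx arrays 2 and 3 (3.84 and 2.04) and KO/Y arrays 2 and 3 (4.59 and 2.73) were all on slide 2. The part of feeder cells, line, slide or handling in the order of the arrays was not tested.

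**Figure D3:**
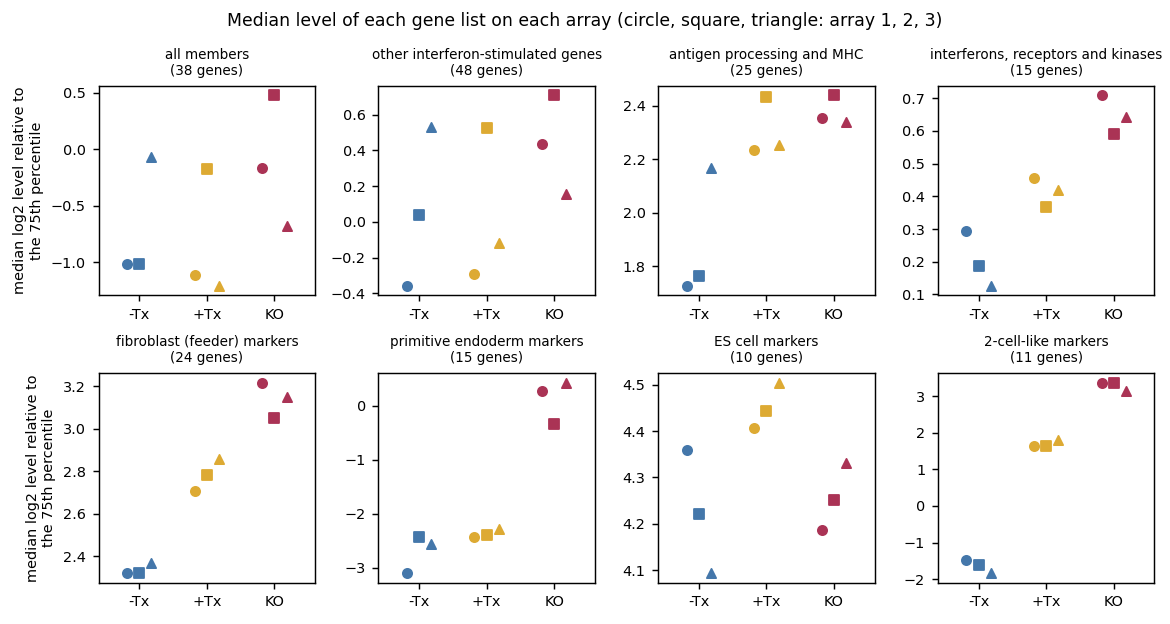
Median log2 level relative to the 75th percentile for 8 gene lists, with 1 point per array (circle, square and triangle for arrays 1, 2 and 3) and a separate vertical scale in each panel. The members and the other interferon-stimulated genes spread widely within groups, with −Tx array 3, +Tx array 2 and KO/Y array 2 highest, while the fibroblast, primitive endoderm and 2-cell-like marker medians differ mainly between groups.

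The comparison of +Tx with −Tx asked what differed after 4 days of Tx and the Nr0b1 deletion that it induced, and few members moved. A gene was called when it differed over 2-fold with an adjusted p under 0.05. None of the 38 members was called higher by limma, where 1.75% of all genes were, while limma's test against a 2-fold change called 0 and 3 members were higher at an unadjusted p under 0.05. Oas1a was the 1 member called lower, where 0.762% of all genes were. At the adjusted p alone Oas2 was the 1 member higher, against 11.9% of all genes, and 4 members were lower (Cxcl10, Ifitm1, Irf1 and Oas1a), against 14.7%. The median log2 change of the members was -0.17, beside -0.06 over all genes, and single arrays moved it. It was 0.03 without −Tx array 3, -0.28 without −Tx array 1, -0.30 without +Tx array 2 and -0.09 without +Tx array 1 or 3. With the slide as a block it was -0.34. As −Tx lay only on slide 1, that fit gives the slide 1 change, which rests on +Tx array 1. For KO/Y over +Tx it likewise gives the change within slide 2.

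KO/Y ES cells differed from −Tx in more members. Isg20 and Cxcl10 were called higher (2 of 38, against 4.72% of all genes) and Ifitm1 and Oas1a lower (2 of 38, against 2.84%). At the adjusted p alone 9 members were higher (B2m, Cxcl10, Eif2ak2, Ifit2, Ifitm3, Isg20, Psmb9, Tap1 and Tap2), against 20.5% of all genes, and 6 were lower (Adar, Ddx58, Ifitm1, Irf1, Oas1a and Trim25), against 26.4%. The median log2 change of the members was 0.47, beside -0.06 over all genes. It was 0.01 with the slide as a block and 0.27 with normexp background correction. Leaving out single arrays gave 0.14 without KO/Y array 2, 0.17 without −Tx array 1 and 0.71 without −Tx array 3. In that blocked fit the slide term rests on +Tx array 1 against +Tx arrays 2 and 3, of which array 2 was the high one for Isg15.

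The comparison of KO/Y with +Tx asked how established lines differ from cells that had just lost Nr0b1. It shares its arrays with the other comparisons, so that its values are not independent of theirs. Isg20 and Cxcl10 were again called higher (2 of 38, against 2.37% of all genes), and 0 members were called lower by limma, against 1.05%. At an unadjusted p under 0.05, 4 members were lower, 0 of them over 2-fold, and limma's test against a 2-fold change called 0. At the adjusted p alone 7 members were higher (Cxcl10, Ifi35, Ifitm3, Isg20, Psmb9, Tap1 and Tap2), against 12.1% of all genes, and 4 were lower (Ddx58, Ifitm1, Irf1 and Oas2), against 14.1%. The median log2 change was 0.48, beside 0.01 over all genes, and 0.30 without KO/Y array 2. As counts, the members called were few, and a count near the share of all genes says nothing of the members as a list.

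**Figure D4:**
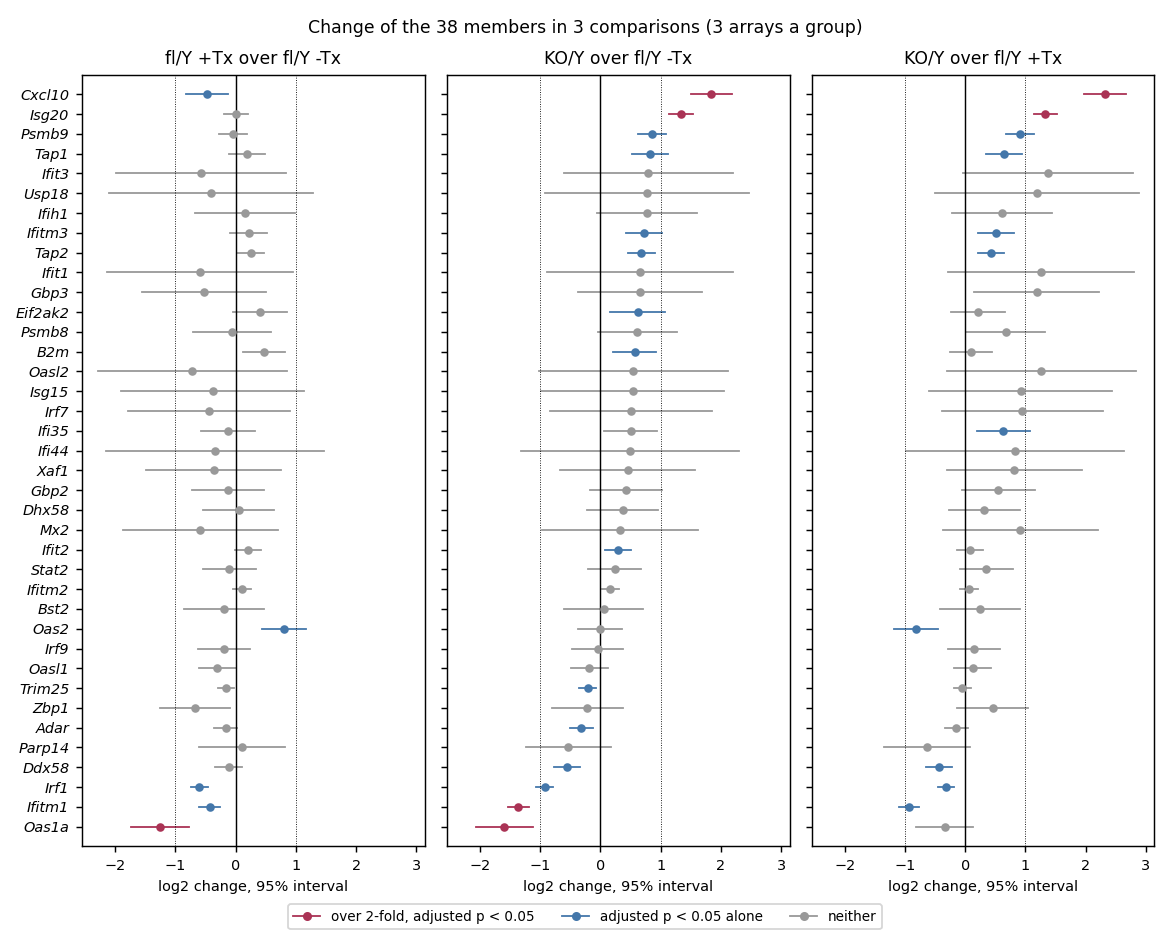
Log2 change of the 38 members in the 3 comparisons (points) with the 95% interval of the limma fit (lines, 3 arrays a group), in red where over 2-fold with an adjusted p under 0.05, in blue where the adjusted p alone passed and in grey otherwise. Dotted lines mark 2-fold; the widest intervals belong to Ifi44, Usp18, Oasl2, Ifit1 and Isg15, and the narrow ones to Irf1, Ifitm1 and Isg20.

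The 14 members with the wide spread passed the adjusted p in no comparison, and the 95% intervals of their log2 changes were between 1.31 and 3.62 wide. For Isg15 the log2 change in KO/Y over −Tx was 0.54 with a 95% interval of -0.98 to 2.06 (limma adjusted p = 0.555). For Ifit1 it was 0.66, from -0.88 to 2.20 (limma adjusted p = 0.467), and for Ifi44 0.49, from -1.32 to 2.30 (limma adjusted p = 0.656). With their spread within groups, differences of this size in these 3 genes could not be detected. The call changed with single arrays: without KO/Y array 3, Gbp3 was called higher in KO/Y over +Tx at 1.64 (limma adjusted p = 0.0232) and Ifit3 at 1.94 (limma adjusted p = 0.0485), in place of 1.18 and 1.37. Without −Tx array 3, Ifih1, the sensor of long double-stranded RNA, was called higher in KO/Y over −Tx at 1.12 (limma adjusted p = 0.0253).

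Isg20, an interferon-induced 3′-to-5′ exonuclease that degrades viral RNA, was at -1.05 on each of the −Tx arrays. It was at -1.17, -0.86 and -1.10 on the +Tx arrays and at 0.23, 0.36 and 0.26 on the KO/Y arrays. KO/Y arrays were all above the others, and −Tx and +Tx overlapped. Isg20 was 2.52-fold higher in KO/Y than in −Tx (log2 change 1.33, standard error 0.0849, limma adjusted p = 6.62e-06) and 2.51-fold higher than in +Tx (limma adjusted p = 2.21e-05), while +Tx and −Tx differed by 0.01 (limma adjusted p = 0.968). The probe lies at chr7:86065136-86065195 on mm9, and a second probe rose by 1.43 in KO/Y over −Tx. With the slide as a block the change was 1.14 (limma adjusted p = 0.00183), and between the slide 2 arrays of KO/Y and +Tx it was 1.26 (limma adjusted p = 0.00194).

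Cxcl10, the chemokine that attracts CXCR3-bearing T cells, was at -2.75, -3.04 and -2.74 in −Tx. It was at -3.14, -3.44 and -3.38 in +Tx, with 1 of these arrays not well above background, and at -1.11, -0.69 and -1.20 in KO/Y. The 3 groups did not overlap, and +Tx was lowest. Cxcl10 was 3.58-fold higher in KO/Y than in −Tx (log2 change 1.84, standard error 0.15, limma adjusted p = 2.57e-05) and 4.99-fold higher than in +Tx (log2 change 2.32, limma adjusted p = 2.37e-05). With the slide as a block the first change was 2.11 (limma adjusted p = 0.00184), and within slide 2 the second was 2.41 (limma adjusted p = 0.00109). The lower level in +Tx than in −Tx, at -0.48 (limma adjusted p = 0.0465), was lost without −Tx array 1 or 3, +Tx array 2 or 3, or KO/Y array 1. It was -0.30 with the slide as a block (limma adjusted p = 0.407), which is also the change on slide 1 alone and rests on 1 +Tx array. The probe lies at chr5:92775781-92775840 on mm9, and the other Cxcl10 probe was well above background on 0 of 9 arrays.

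Oas1a, a synthetase of the oligoadenylate that activates RNase L, was at 2.57, 2.75 and 3.13 in −Tx. It was at 1.40, 1.91 and 1.37 in +Tx and at 1.13, 1.55 and 0.99 in KO/Y. All −Tx arrays were above the rest, and +Tx and KO/Y overlapped; within each group the highest array was again the one highest for Isg15. Oas1a was 2.39-fold lower in +Tx than in −Tx (log2 change -1.26, standard error 0.208, limma adjusted p = 0.00343) and 3.02-fold lower in KO/Y (log2 change -1.59, limma adjusted p = 0.000329). The change in +Tx was -1.41 with the slide as a block (limma adjusted p = 0.027), which is also the change on slide 1 alone and rests on 1 +Tx array. That in KO/Y was -1.83 with the slide as a block (limma adjusted p = 0.0147). A second probe fell by 1.15 in +Tx and by 1.27 in KO/Y. The mouse Oas1 genes are near-copies of each other, and how far their RNA binds the probe at chr5:121346735-121346794 (mm9) is not known. Oas1c, one of these copies, was also lower, at -0.79 in +Tx and -0.55 in KO/Y, while Oas1b was higher, at 0.25 and 0.59, all past the adjusted p.

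Oas2, a larger synthetase of the same family, stood apart in +Tx. It was at -0.35, -0.06 and 0.12 in −Tx, at 0.54, 0.75 and 0.85 in +Tx and at -0.19, 0.18 and -0.31 in KO/Y. The +Tx arrays were all above the rest, and −Tx and KO/Y overlapped. Its log2 change in +Tx over −Tx was 0.81 (limma adjusted p = 0.00747) and in KO/Y over +Tx -0.82 (limma adjusted p = 0.00628). The first was 0.63 with the slide as a block and no longer passed (limma adjusted p = 0.116). KO/Y and −Tx differed by -0.01, with a 95% interval of -0.38 to 0.35. Of the other synthetase-like members, Oasl1 passed no test, although all its +Tx arrays lay below the −Tx arrays (-0.31, 95% interval -0.62 to 0.00), and Oasl2 was of the wide kind.

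**Figure D5:**
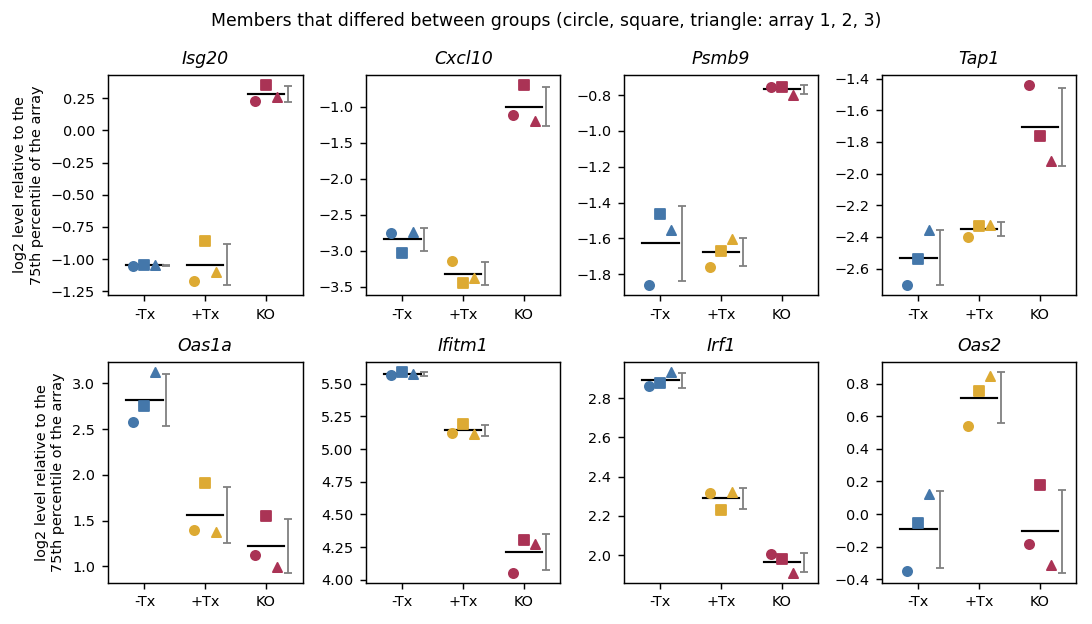
Log2 levels relative to the 75th percentile of the array for 8 members that differed between groups, with 1 point per array (circle, square and triangle for arrays 1, 2 and 3), a black line at the group mean and a grey bar of ± 1 SD (n = 3 arrays). Isg20, Cxcl10, Psmb9 and Tap1 are highest in KO/Y, Oas1a, Ifitm1 and Irf1 are highest in −Tx, and Oas2 is highest in +Tx.

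Ifitm1, a membrane protein that restricts virus entry and is abundant in early embryonic cells, stepped down from group to group. It was at 5.57, 5.59 and 5.57 in −Tx, at 5.12, 5.19 and 5.11 in +Tx and at 4.05, 4.31 and 4.27 in KO/Y, with no overlap between groups. The log2 change was -0.43 in +Tx (limma adjusted p = 0.00441) and -1.37 in KO/Y over −Tx (2.58-fold lower, standard error 0.0758, limma adjusted p = 2.86e-06), and -0.93 in KO/Y over +Tx (limma adjusted p = 8e-05). With the slide as a block these were -0.45, -1.40 and -0.94, all past the threshold. The 2 Ifitm1 probes, shifted by 1 base against each other, gave nearly equal values. Ifitm3, its neighbour, went the other way: it was at 4.29, 4.51 and 4.83 in −Tx, at 4.65, 4.87 and 4.75 in +Tx and at 5.17, 5.36 and 5.26 in KO/Y, and was higher in KO/Y over −Tx by 0.72 (limma adjusted p = 0.00212), or 0.56 with the slide as a block (limma adjusted p = 0.148). Over +Tx it was higher by 0.51 (limma adjusted p = 0.0232). This no longer passed with the slide as a block (0.45, limma adjusted p = 0.0743) or without +Tx array 1 or 3 or KO/Y array 2 or 3. Ifitm2 lay between 4.33 and 4.58 on all arrays and passed no test, and the tetherin gene Bst2 followed the arrays of Isg15.

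Irf1, a transcription factor that interferon gamma induces and that acts on MHC class I processing genes, also stepped down. It was at 2.86, 2.88 and 2.93 in −Tx, at 2.32, 2.23 and 2.32 in +Tx and at 2.0, 1.98 and 1.91 in KO/Y. The groups did not overlap, and its SD within groups, 0.0468, was the smallest of all members. The log2 change was -0.60 in +Tx over −Tx (limma adjusted p = 0.000248) and -0.93 in KO/Y over −Tx (limma adjusted p = 6.68e-06), both under 2-fold. With the slide as a block they were -0.57 (limma adjusted p = 0.00879) and -0.89 (limma adjusted p = 0.00221). The change in KO/Y over +Tx was -0.31 with the slide as a block (limma adjusted p = 0.0201). On slide 2 alone, where the change is the same by design, it did not pass (limma adjusted p = 0.081). The other Irf1 probe was well above background on 0 of 9 arrays. Stat2 and Irf9, which act at interferon-stimulated response elements, passed no test, with log2 changes from -0.20 to 0.35.

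Of the 5 antigen presentation members, 4 were higher in KO/Y than in −Tx at the adjusted p, against 20.5% of all genes. All 4 changes were under 2-fold, and Psmb8 did not pass. Psmb9, an immunoproteasome subunit, was at -1.86, -1.47 and -1.56 in −Tx, at -1.76, -1.67 and -1.60 in +Tx and at -0.75, -0.75 and -0.80 in KO/Y. Its other probe was well above background on 0 of 9 arrays. Tap1, one chain of the peptide transporter, was at -2.70, -2.54 and -2.35 in −Tx, at -2.40, -2.33 and -2.32 in +Tx and at -1.44, -1.76 and -1.92 in KO/Y. Tap2, the other chain, was at 0.84, 1.01 and 1.12 in −Tx, at 1.25, 1.33 and 1.14 in +Tx and at 1.80, 1.66 and 1.55 in KO/Y. For all 3 genes the KO/Y arrays lay above every other array. Over −Tx, Psmb9 was higher by 0.86 (limma adjusted p = 0.000196), Tap1 by 0.82 (limma adjusted p = 0.000967) and Tap2 by 0.68 (limma adjusted p = 0.000565), and with the slide as a block by 0.74 (limma adjusted p = 0.0295), 0.75 (limma adjusted p = 0.069) and 0.68 (limma adjusted p = 0.0372).

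B2m, the light chain of MHC class I, was at 4.26, 4.48 and 4.87 in −Tx, at 4.78, 5.13 and 5.09 in +Tx and at 5.10, 5.13 and 5.06 in KO/Y. It was higher in KO/Y than in −Tx by 0.57 (limma adjusted p = 0.0154), or 0.24 with the slide as a block (limma adjusted p = 0.571), and −Tx array 3 overlapped the +Tx arrays. Psmb8, the immunoproteasome subunit encoded beside Psmb9, was at -2.14, -1.92 and -1.40 in −Tx, at -2.28, -1.33 and -2.02 in +Tx and at -1.41, -0.81 and -1.40 in KO/Y. Unlike Psmb9 it spread with the arrays of Isg15, and its log2 change in KO/Y over −Tx was 0.61 with an interval of -0.04 to 1.27 (limma adjusted p = 0.115).

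Other genes of antigen processing were mixed. Of 25 tested, 13 were higher and 5 lower in KO/Y over −Tx at the adjusted p, against 20.5% and 26.4% of all genes. H2-Eb1, a chain of MHC class II, was the 1 called, at 2.82 (7.05-fold, limma adjusted p = 2.41e-05). Among class I heavy chains, H2-K1 rose by 0.50 (limma adjusted p = 0.0183), H2-D1 by 0.67 (limma adjusted p = 0.00733) and H2-T23 by 0.52 (limma adjusted p = 0.0201), while H2-Q4 was at -0.08 (limma adjusted p = 0.584). H2-K1 and H2-T23 were also highest on the same arrays as Isg15. The proteasome activator genes Psme1 and Psme2 were lower, at -0.34 and -0.26, as was the third immunoproteasome subunit Psmb10, at -0.39. Of 14 constitutive proteasome subunits, 8 were lower and 0 higher in KO/Y over −Tx by limma, with a median of -0.21.

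The remaining sensors and RNA-directed members changed little. Ddx58 (RIG-I) was at 2.77, 2.92 and 2.94 in −Tx, at 2.67, 2.80 and 2.80 in +Tx and at 2.38, 2.46 and 2.13 in KO/Y, and its log2 change in KO/Y over −Tx was -0.55 (limma adjusted p = 0.00157). Its second probe did not share this, at 0.33 (limma adjusted p = 0.132). Eif2ak2 (PKR), the kinase that halts translation on sensing double-stranded RNA, was higher by 0.62 (limma adjusted p = 0.0307) and by 0.27 with the slide as a block (limma adjusted p = 0.635), and −Tx array 3, at 0.44, overlapped the KO/Y arrays, which lay between 0.40 and 0.91. Ifit2, an Ifit family member tied to apoptosis, was at -3.35, -3.64 and -3.37 in −Tx, at -3.34, -3.29 and -3.10 in +Tx and at -3.14, -3.18 and -3.16 in KO/Y, higher in KO/Y by 0.29 (limma adjusted p = 0.0328) and by 0.15 with the slide as a block (limma adjusted p = 0.592). Eif2ak2 no longer passed without −Tx array 1 or 2 or KO/Y array 1 or 2. Nor did Ifit2 pass without −Tx array 2 or any KO/Y array. Unlike Ifit1 and Ifit3, Ifit2 did not follow the arrays of Isg15. The Ifit3 probe may also bind RNA of the near-identical copy Ifit3b. Adar, the RNA-editing deaminase, was at 1.72, 1.67 and 1.78 in −Tx, at 1.44, 1.64 and 1.58 in +Tx and at 1.43, 1.51 and 1.28 in KO/Y on its brighter probe, with no overlap of KO/Y and −Tx. Its log2 change in KO/Y over −Tx was -0.32 on that probe (limma adjusted p = 0.0119) and 0.09 on the other (limma adjusted p = 0.423).

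Probes of a gene also parted in 2 further members. Trim25, the ubiquitin ligase that activates RIG-I, was at 5.14, 5.18 and 5.24 in −Tx, at 5.06, 5.04 and 4.97 in +Tx and at 4.93, 5.03 and 4.96 in KO/Y on its brighter probe. It was lower in KO/Y over −Tx on that probe (-0.21, limma adjusted p = 0.0199) and higher on the other (0.25, limma adjusted p = 0.00838), so that its direction depends on the probe. On its brighter probe Trim25 no longer passed with the slide as a block (-0.15, limma adjusted p = 0.396) or without −Tx array 2 or 3 or KO/Y array 3. Xaf1, a pro-apoptotic interferon-induced gene, spread with the arrays of Isg15 on its brighter probe, but the other was at -0.72, -0.50 and -0.66 in −Tx, at -2.06, -1.87 and -2.12 in +Tx and at -0.54, -0.50 and -0.63 in KO/Y. On that probe +Tx lay below every other array, at -1.39 against −Tx (limma adjusted p = 2.94e-05). Ifi35, an interferon-induced leucine zipper protein, was at 0.25, 0.56 and 0.82 in −Tx, at 0.36, 0.69 and 0.18 in +Tx and at 0.94, 1.36 and 0.84 in KO/Y, all KO/Y arrays above the rest. It was higher in KO/Y than in +Tx by 0.63 (limma adjusted p = 0.0422) and than in −Tx by 0.51 (limma adjusted p = 0.0605). The first change no longer passed with the slide as a block (0.61, limma adjusted p = 0.103) or on slide 2 alone (limma adjusted p = 0.125). Nor did it pass without −Tx array 2, +Tx array 1 or 3, or KO/Y array 1 or 2. Zbp1, a sensor of Z-form nucleic acid, passed no test on its brighter probe, where all +Tx arrays lay below the −Tx arrays, at -0.67 (limma adjusted p = 0.0872). On its other probe, well above background on 6 of 9 arrays, the log2 change in +Tx over −Tx was -0.69 and passed (limma adjusted p = 0.0245). On +Tx arrays 1 and 2 that probe was at -4.37 and -3.98. The lowest signals well above background on these arrays were -4.25 and -3.66, so the size of that change is uncertain.

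Upstream of the members, the interferon genes Ifnb1, Ifng, Ifna4 and Ifnk had no probe that passed the background filter. Ifna1, Ifna2 and Ifnl3 were measured above background and passed no test. Of 15 tested interferons, receptors and kinases, 10 were higher and 0 lower in KO/Y over −Tx at the adjusted p. Over all genes the shares were 20.5% and 26.4%. Among the higher were Ifnar1, a chain of the type I receptor, at 0.82 (limma adjusted p = 8.59e-05), Ifngr1 at 0.40 and Jak1 at 0.55. Of 20 adaptors and factors of sensing, 7 were higher and 2 lower. Aim2, a sensor of cytosolic DNA, was the 1 called in that list: it lay between -0.79 and -0.74 in −Tx, between -1.30 and -1.16 in +Tx and between -2.72 and -2.58 in KO/Y, and was 3.75-fold lower in KO/Y than in −Tx (limma adjusted p = 1.74e-07).

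Among 48 other interferon-stimulated genes, 12 were higher and 11 lower in KO/Y over −Tx at the adjusted p, with a median of 0.11. Over all genes 20.5% were higher and 26.4% lower. Those called in the list were Ube2l6, the conjugating enzyme for Isg15, at 1.04 (limma adjusted p = 2.16e-05), and Tor3a at -1.10 (limma adjusted p = 3.61e-05). Marker lists moved with the same comparison. The 2-cell-like markers moved most, with 10 of 11 higher and a median of 4.29, while 5 of 10 ES cell markers were lower and 1 higher, with a median of -0.27. All 24 fibroblast markers were higher in KO/Y at the adjusted p, with a median of 0.67. All 15 primitive endoderm markers tested were higher, with a median of 2.27, and their median level was -3.11 to -2.43 in −Tx and -0.34 to 0.43 in KO/Y. Of 11 immune cell markers tested, 6 were higher and 2 lower, while Ptprc, which marks all leukocytes, was not tested for want of signal. In +Tx over −Tx, 16 fibroblast markers were higher, with a median of 0.37. The part of these cells in the changes of the members was not tested.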

How the data were processed

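Array intensities (SurePrint G3 Mouse, one-colour Cy3) were deposited as scanner output, background-subtracted and detrended within each array by Agilent Feature Extraction 10.7.3.1 per the file headers. The processed signal was not normalised between arrays by the authors in these files; their series table, 1 averaged value per group and probe, served as an alternative. Here the log2 signal minus the 75th percentile of the array was used, without control or outlier spots, and 0 spots were saturated. Probes well above background on all 3 arrays of at least 1 group were kept, with the brightest per gene. Genes were named through RefSeq accessions where the table held them (27235 of 55681 probes) and otherwise as in the files. Differences were tested with limma 3.58.1 in R 4.3.3 over all 9 arrays with Benjamini-Hochberg adjustment over 22441 genes. Standard errors and 95% intervals come from that fit (8.46 degrees of freedom). Changes and adjusted p-values of a gene's less bright probe come from a separate fit of the 31189 kept probes, adjusted over those probes. Slide, background, scaling, filter, probe choice, variance and single arrays were varied. The code was tested on simulated data of the KO/Y and −Tx comparison. There, at the adjusted p alone, 84% of genes changed by 1 on the log2 scale and 96% of those changed by 2 were recovered. The 2-fold limit of a call was not applied, and noise was drawn separately for each gene. These shares therefore do not give the power of the calls. The number of arrays limits the precision. The members and lists were chosen with earlier results of these data known. Members called, or not overlapping at an adjusted p under 0.05, are given per array, as are others chosen after their values were seen.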

Additional observations from a re-analysis of the deposited data

How the results depend on the processing

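Most calls of members held under the alternatives. By limma's test against a 2-fold change, the members called fell to 0 lower in +Tx over −Tx (from 1), to 1 higher and 1 lower in KO/Y over −Tx (from 2 each) and to 1 higher in KO/Y over +Tx (from 2): Cxcl10 and Ifitm1 passed, and Isg20 and Oas1a did not. With probes required to be above background on all 9 arrays, there were 37 members tested, 1 of them higher in KO/Y over −Tx and 1 in KO/Y over +Tx, since Cxcl10 was not tested there. On the only slide with both groups, 0 members were lower in +Tx over −Tx (Oas1a, limma adjusted p = 0.0547). Without 1 array in turn, the number higher in KO/Y over +Tx ranged from 2 to 4, with 4 without KO/Y array 3. Trim25 in KO/Y over −Tx reversed to 0.24 with normexp background correction and to 0.021 as the mean of its probes. Xaf1 as the mean of its probes was called higher in KO/Y over +Tx (1.14, limma adjusted p = 0.0154), and Gbp3 with an intensity trend (limma adjusted p = 0.0335); the causes were not tested. At the adjusted p alone, members higher in +Tx over −Tx ranged from 0 to 3 (1 in the report), and those higher in KO/Y over −Tx were 4 instead of 9 with the slide as a block. Those lower in KO/Y over −Tx were 3 instead of 6 as means of probes. On 1 slide those higher and lower in KO/Y over +Tx were 4 and 2 instead of 7 and 4, and those lower in +Tx over −Tx 2 instead of 4. Over all genes, normexp called 416 higher and 267 lower in KO/Y over −Tx, instead of 1059 and 637, and the test against a 2-fold change 474 and 192. Members sharing the highest arrays of Isg15 numbered 24 to 27 under alternatives chosen after seeing the data. The median of the authors' series table was 0.121, 0.122 and 0.124 in −Tx, +Tx and KO/Y, and its scaling constant is unknown; it holds 1 value a group, so it gave medians only. No paired analysis was possible because the arrays carry no replicate numbers.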
